A study of Takifugu obscurus and Periophthalmus magnuspinnatus and Gallus gallus with 6 samples.

Results

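Notch receptors, Notch ligands and hes-type repressors were followed gene by gene across the cell classes of the fugu and chicken spinal cord. The set held every row of the fugu and chicken gene tables whose symbol was NOTCH1, NOTCH2, DLL1, JAG1, JAG2, her6 or her9. This gave 7 genes: 5 of the 17007 genes of the chicken table (NOTCH1 ENSGALG00010028107, NOTCH2 ENSGALG00010013323, DLL1 ENSGALG00010007927, JAG1 ENSGALG00010018226 and JAG2 ENSGALG00010019830) and 2 of the 21383 genes of the fugu table (her6 ENSTRUG00000023176 and her9 ENSTRUG00000009985). All 7 passed the filter on low counts. Fugu Notch receptors and ligands carry other symbols, such as notch1a, and chicken repressors carry HES and HEY names, so these appear only among the further genes of the pathway.

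Notch receptors are single-pass membrane proteins that bind Delta-like (DLL) and Jagged (JAG) ligands on neighbouring cells. Binding leads to cleavage of the receptor, and its intracellular part enters the nucleus and, with RBPJ and Mastermind proteins, switches on repressors of the HES and HEY families. In the developing spinal cord the pathway is known for keeping neural progenitors undifferentiated, for the choice between neuronal and glial fate, and for holding back the differentiation of oligodendrocyte precursors. her6 and her9 are fish genes of the HES family that are known from zebrafish as repressors active in neural progenitors.

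Spinal cord cells were profiled by droplet single-cell RNA sequencing, with 2 libraries per species. The fugu libraries came from fish at 1 month after hatching (labelled Takifugu obscurus, described in the methods as a hybrid of T. obscurus and T. rubripes), and the chicken libraries from embryos at embryonic day 10 to 11, Hamburger-Hamilton stage 36 to 37. No genotype or treatment distinguished the libraries, and in both species the rostral cord, at the level of the pectoral fin or the wing, was dissociated with pronase and sorted for cells that excluded propidium iodide. Several animals were pooled for each library, so the libraries of a species are the replicates here. The p-values rest on the spread between the 2 library sums of a class, estimated over all classes of a species without a library term. Classes of a library share its pool, so a small p-value does not stand for more than 2 replicates. The mudskipper libraries of the series were not used, since their table gives identifiers without symbols.

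The fugu libraries kept 2556 and 2519 cells with median counts of 5386 and 5455 unique molecular identifiers (UMIs), and the chicken libraries 7626 and 7743 cells with medians of 12125 and 12440. The chicken libraries shared 17 cell barcodes and the fugu libraries 0. Cells were grouped into 15 chicken and 14 fugu classes by clustering without the Notch pathway genes, and named from marker genes. Levels are given as CPM, the UMIs of a gene scaled to a fixed total of UMIs summed over the cells of a class in a library, and compared between classes of 1 gene, never between genes. In chicken the oligodendrocyte lineage comprised cycling oligodendrocyte precursor (OPC)-like cells, non-cycling OPC-like cells, lineage cells led by MCM replication genes, committed precursor (COP)-like cells with GPR17, COP-like cells with MBP, and ENPP6-positive oligodendrocyte-like cells. The MCM gene lineage cells also carried the COP markers GPR17 and FYN, the OPC markers VCAN and SOX6 and the cycling marker PCNA. Neither PDGFRA nor the COP markers TNS3, TCF7L2, BCAS1 and PRDM8 marked them. No fugu class was led by the OPC markers. The fugu radial glia panel cells, called so only for a panel of sema5a, c1ql4b and plxnb1b, also carried the lineage markers SOX10, OLIG2 and olig1. Of this panel plxnb1b also marked the astrocyte-like and cilia gene cells. The panel cells carried OPC markers such as sox6, cspg4 and cspg5a but not pdgfra, tnr or ptprz1b. They also carried the neuron markers elavl4, STMN2 and syt1a. With fabp7a as their only marker of astrocytes or radial glia, the data go against a reading of them as radial glia. The study's text names Sox2, Vim and Slc1a2 as markers of fish radial glia. Of these slc1a2b marked the astrocyte-like class and not the panel cells, Vim marked neither, and Sox2 was not among the markers used. The fugu astrocyte-like class carried OPC markers such as pdgfra, cspg5a and tnr beside slc1a2b, slc1a3a and SLC6A11. The chicken mural-like class also carried mesenchymal markers. In chicken SOX10 marked the COP-like, MBP-positive COP-like and ENPP6-positive classes, and not the OPC-like or MCM gene classes. Cycling progenitors without SOX10 carried no marker of the oligodendrocyte lineage list. Beside cycling genes they carried astrocyte or radial glia markers such as AQP4, SLC1A3, SOX9 and GFAP, and of the OPC markers only PTPRZ1. Although the members were not used for clustering, genes that vary with them were, and fewer cells with a transcript and fewer transcripts per cell cannot be told apart in a summed level.

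NOTCH1 was found across chicken glial, precursor and vascular classes, with its highest levels in mural-like cells and in the cycling and MCM gene classes of the oligodendrocyte lineage. It had 710 and 636 CPM in the 2 libraries of mural-like cells, 604 and 651 CPM in those of cycling OPC-like cells, and 572 and 586 CPM in MCM gene lineage cells. The mural-like and cycling OPC-like ranges overlapped, and the MCM gene lineage cells lay below both. Endothelial-like cells followed with 419 and 390 CPM. Non-cycling OPC-like cells (355 and 370 CPM) and cycling progenitors without SOX10 (342 and 369 CPM) overlapped, as did astrocyte or radial glia-like cells (309 and 339 CPM) and COP-like cells (320 and 320 CPM). MBP-positive COP-like cells, at 140 and 148 CPM, were lower than COP-like cells in both libraries, and ENPP6-positive oligodendrocyte-like cells were lower again, at 32.1 and 26.0 CPM. Inhibitory neuron-like cells (6.75 and 23.7 CPM) and excitatory neuron-like cells (9.52 and 19.4 CPM) overlapped erythroid-like cells (16.3 and 11.6 CPM), which should lack the receptor. PKD2L1-positive neuron-like cells, named for the channel gene of cerebrospinal fluid-contacting neurons, stood above the other neurons with 55.0 and 65.9 CPM. Barcodes with fewer than 100 UMIs, taken as free RNA, held NOTCH1 at 206 and 240 CPM. Such a value is a share of free RNA and not the amount that free RNA adds to a cell. A class below it is therefore not shown to be at background.

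Nearly every cycling OPC-like cell carried NOTCH1. At least 1 UMI was seen in 99.1% and 99.7% of cycling OPC-like cells, 95.8% and 97.6% of non-cycling OPC-like cells, and 6.98% and 6.82% of erythroid-like cells, whose median depths were 16937 and 17279, 11120 and 11903, and 14436 and 13158 UMIs. After each cell was thinned to 3000 UMIs, the shares were 78.0% and 83.6% in cycling OPC-like cells, 63.8% and 61.6% in non-cycling OPC-like cells, and 4.65% and 4.55% in erythroid-like cells. The order of these 3 classes was thus the same at equal depth as in CPM.

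NOTCH2 was highest in mural-like cells and glia outside the oligodendrocyte lineage, and lower in the lineage and in neuron-like cells. It had 300 and 260 CPM in mural-like cells, 222 and 230 CPM in astrocyte or radial glia-like cells, and 205 and 219 CPM in cycling progenitors without SOX10. The ranges of these 3 classes did not overlap. Ependymal-like cells had 133 and 84.4 CPM. Every class of the oligodendrocyte lineage lay between 17.2 and 37.9 CPM, and the neuron-like classes between 17.8 and 36.4 CPM, so both were far below astrocyte or radial glia-like cells in each library. Both were above erythroid-like cells, which had 1.63 and 3.32 CPM from 1 and 2 UMIs. Endothelial-like cells, which held NOTCH1, had 5.59 and 6.18 CPM of NOTCH2, from 1 UMI in each library.

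DLL1, a transmembrane Delta ligand, was concentrated in the oligodendrocyte lineage. MCM gene lineage cells had 238 and 246 CPM, cycling OPC-like cells 211 and 224 CPM, non-cycling OPC-like cells 174 and 169 CPM, and COP-like cells 102 and 94.0 CPM. No 2 of these 4 classes overlapped. Since MCM gene lineage cells carried markers of both OPC and COP, this order of levels is not read as an order of stages. The level was lower again later in the lineage, with 27.9 and 23.5 CPM in MBP-positive COP-like cells and 7.53 and 10.0 CPM in ENPP6-positive oligodendrocyte-like cells. Endothelial-like cells (106 and 74.2 CPM) overlapped COP-like cells, although these values rest on 19 and 12 UMIs. Astrocyte or radial glia-like cells had 2.05 and 2.01 CPM and mural-like cells 1.77 and 1.45 CPM. Both were at the level of erythroid-like cells, at 1.63 and 3.32 CPM. The share of cells with a DLL1 UMI was 1.85% and 1.89% in astrocyte or radial glia-like cells, against 2.33% and 2.27% in erythroid-like cells, and is read as background. Free RNA held 81.4 and 84.6 CPM of DLL1. COP-like cells lay above this in both libraries, and MBP-positive COP-like, ENPP6-positive oligodendrocyte-like and neuron-like cells lay below it.

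JAG1 and JAG2, the Jagged ligands, had different distributions. JAG1 was highest in vascular classes, with 186 and 208 CPM in mural-like cells and 201 and 186 CPM in endothelial-like cells, which overlapped. Astrocyte or radial glia-like cells followed with 111 and 83.6 CPM, above non-cycling OPC-like cells with 68.8 and 72.2 CPM. Cycling progenitors without SOX10 spread widely between their libraries, at 73.9 and 53.1 CPM, and overlapped non-cycling OPC-like cells. Cycling OPC-like cells had 32.3 and 33.6 CPM and MCM gene lineage cells 26.7 and 26.3 CPM. Free RNA held 30.4 and 39.8 CPM of JAG1, a range that takes in the cycling OPC-like values. Erythroid-like cells had 4.89 and 3.32 CPM, from 3 and 2 UMIs, below the cycling OPC-like cells in both libraries. The later lineage classes ranged from 3.72 to 11.8 CPM.

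JAG2 was highest in non-cycling OPC-like cells, at 66.6 and 57.4 CPM. Endothelial-like cells, with 44.7 and 68.0 CPM from 8 and 11 UMIs, overlapped them, and excitatory neuron-like cells came next at 47.6 and 44.8 CPM. Cycling OPC-like cells (40.8 and 35.7 CPM) and inhibitory neuron-like cells (38.7 and 33.7 CPM) overlapped. The neuron-like levels of JAG2 thus lay near those of lineage precursors, as did those of NOTCH2. Astrocyte or radial glia-like cells, at 0.89 and 0.65 CPM, were within the range of erythroid-like cells, at 0 and 1.66 CPM from 0 and 1 UMIs. At equal depth JAG2 was seen in 16.6% and 17.2% of non-cycling OPC-like cells, 10.8% and 8.41% of inhibitory neuron-like cells, and 0.0515% and 0.189% of astrocyte or radial glia-like cells.

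**Figure D1:**
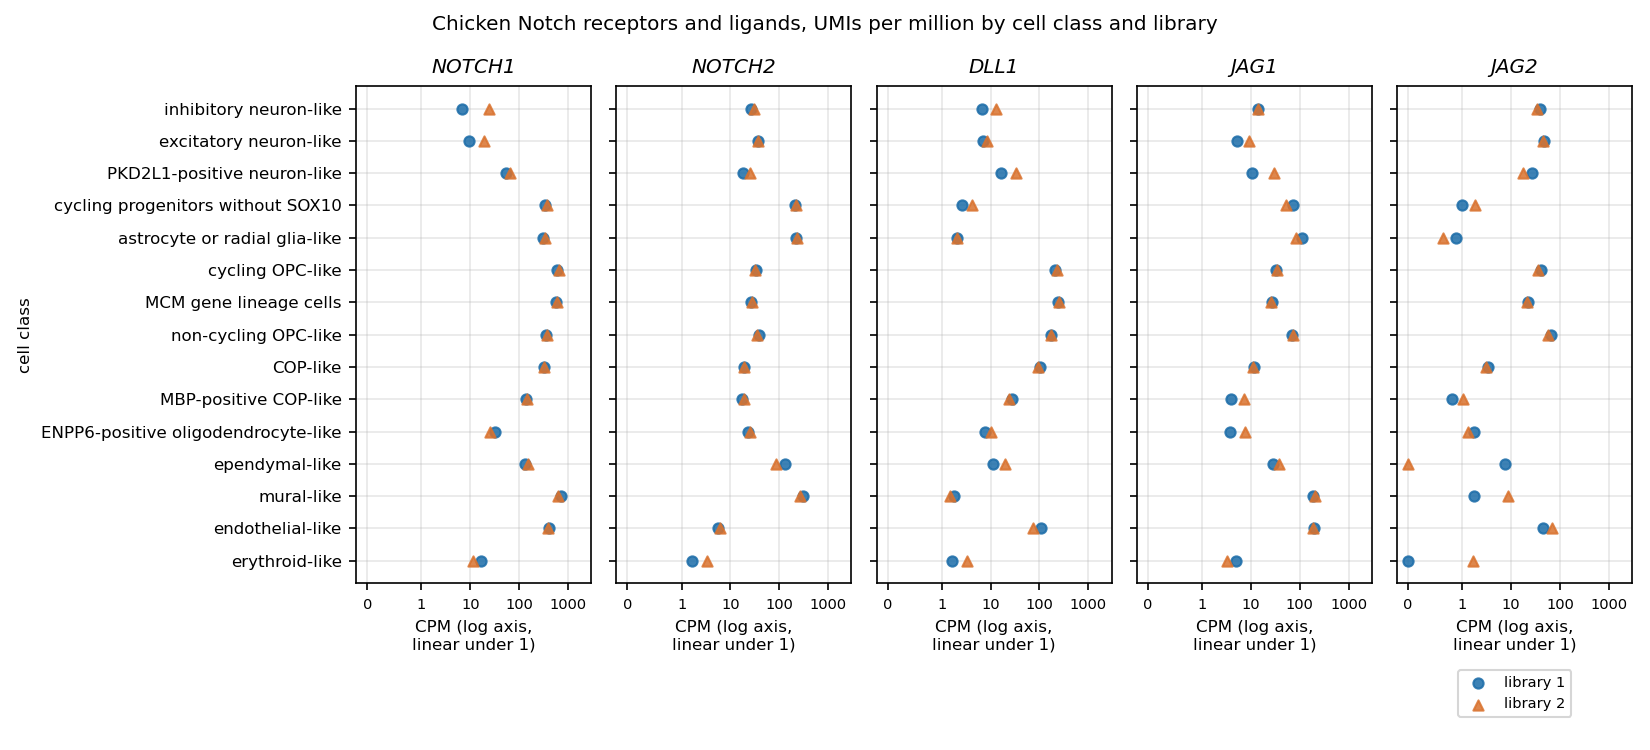
Level of each chicken member in CPM (horizontal, log axis, linear under 1) by cell class, with circles for library 1 and triangles for library 2. NOTCH1 sits above 300 CPM from astrocyte or radial glia-like to COP-like cells, whereas DLL1 drops to 2.05 and 2.01 CPM in astrocyte or radial glia-like cells.

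The astrocyte or radial glia-like class was made of a pair of clusters, which differed in their receptors and ligand. The cluster that held more NOTCH2 (279 and 265 CPM, against 188 and 204 CPM) held less JAG1 (86.9 and 68.0 CPM, against 126 and 94.8 CPM) and less NOTCH1 (289 and 291 CPM, against 321 and 373 CPM). Within each library each of these differences had the same direction, and none was tested. The cluster with more NOTCH2 also held more of the mural markers, which summed over all 8 genes of the list to 109 and 163 CPM, against 41.1 and 43.3 CPM, and more of the mesenchymal markers, which summed over 6 genes to 228 and 272 CPM, against 51.7 and 55.5 CPM. In mural-like cells these sums were 2705 and 2646 CPM and 1584 and 1418 CPM. The defining mural marker RGS5 was at 0 in this cluster and ACTA2 at 1.61 and 2.40 CPM, against 832 and 784 CPM in mural-like cells, while TAGLN, DCN and COL1A2 were the markers that differed between the clusters most.

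Dividing precursors were compared with non-dividing ones, to see whether the Notch genes differ between cycling and non-cycling OPC-like cells. NOTCH1 rose in cycling OPC-like cells, at 604 and 651 CPM against 355 and 370 CPM in non-cycling OPC-like cells, whereas both Jagged ligands fell. By edgeR's quasi-likelihood test with Benjamini-Hochberg adjustment over 13296 genes, the log2 fold change of NOTCH1 was 0.74 (SE 0.25, adjusted p = 0.0216), that of JAG1 was -1.15 (SE 0.20, adjusted p = 6.61e-05) and that of JAG2 was -0.76 (SE 0.20, adjusted p = 0.00293). JAG1 had 32.3 and 33.6 CPM in cycling OPC-like cells, against 68.8 and 72.2 CPM in non-cycling OPC-like cells. JAG2 had 40.8 and 35.7 CPM in cycling OPC-like cells, against 66.6 and 57.4 CPM in non-cycling OPC-like cells. For all 3 genes the libraries of the classes did not overlap. Of all tested genes 45.1% were called in this comparison, 15.9% as higher and 29.1% as lower in cycling OPC-like cells, and of the 5 members 1 was called higher and 2 lower. The median over all genes was -0.19, so a log2 fold change near that value marks a gene that moved with the bulk.

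DLL1, at 211 and 224 CPM in cycling OPC-like cells against 174 and 169 CPM in non-cycling OPC-like cells, did not pass the test (log2 fold change 0.29, SE 0.16, edgeR adjusted p = 0.149), nor did NOTCH2 (-0.21, SE 0.13, edgeR adjusted p = 0.198). Cycling OPC-like cells held more UMIs per cell, with medians of 16937 and 17279 against 11120 and 11903 in non-cycling OPC-like cells. At equal depth JAG1 was still seen in fewer of them, 9.30% and 9.84% against 16.5% and 20% of non-cycling OPC-like cells. The NOTCH1 call was lost in edgeR without the second cycling OPC-like sum (0.68, adjusted p = 0.0959) and without the first (0.72, adjusted p = 0.0980) or the second (0.75, adjusted p = 0.0832) non-cycling OPC-like sum, and the JAG2 call without the first non-cycling OPC-like sum (-0.63, adjusted p = 0.0544). With doublets kept, in edgeR, DLL1 (0.75, adjusted p = 0.00488) and NOTCH2 (-0.86, adjusted p = 1.1e-05) passed the test and JAG2 did not (-0.18, adjusted p = 0.496), in a non-cycling class of which 428 of 1435 barcodes were called doublets. DLL1 also passed in edgeR with the UMI minimum 1.5 times as high (0.49, adjusted p = 0.0319).

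All 5 members were higher in non-cycling OPC-like cells than in the later lineage, the mean of COP-like, MBP-positive COP-like and ENPP6-positive oligodendrocyte-like cells. The differences ran from JAG2, which had 66.6 and 57.4 CPM in non-cycling OPC-like cells against 0.80 to 3.37 CPM over the later classes, to NOTCH2, which had 37.9 and 34.5 CPM against 17.2 to 24.9 CPM. By edgeR's quasi-likelihood test with Benjamini-Hochberg adjustment the log2 fold change was 4.87 for JAG2 (SE 0.19, adjusted p = 6.87e-16), 2.93 for JAG1 (SE 0.17, adjusted p = 7.95e-13) and 2.25 for DLL1 (SE 0.13, adjusted p = 5.33e-13). NOTCH1 followed with 1.37 (SE 0.20, edgeR adjusted p = 2.59e-06) and NOTCH2 with 0.48 (SE 0.11, edgeR adjusted p = 0.000658). In all, 59.7% of genes were called, 34.7% as higher and 25.0% as lower in non-cycling OPC-like cells, and 5 of 5 members were called higher. Scaling by library totals alone raised the share of higher calls among all calls to 79.3%, against 58.1% with TMM, and scaling by size factors gave 65.6%. All 5 calls held under both.

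NOTCH1 differed within the later lineage by more than it differed between non-cycling OPC-like and COP-like cells. It had 320 and 320 CPM in COP-like cells and was seen, at equal depth, in 59.3% and 60.7% of them, against 63.8% and 61.6% of non-cycling OPC-like cells. In MBP-positive COP-like cells the shares were 32.3% and 34.4%, and in ENPP6-positive oligodendrocyte-like cells 9.04% and 7.02%. JAG2 dropped earlier, with 1.13% and 1.03% of COP-like cells against 16.6% and 17.2% of non-cycling OPC-like cells. DLL1 lay between them, at 23.3% and 23.7% of COP-like cells against 39.6% and 36.2% of non-cycling OPC-like cells. With doublets kept the log2 fold changes against the later lineage were 0.64 for NOTCH1, 1.22 for NOTCH2, 1.10 for DLL1 and 3.51 for JAG2, all still called by edgeR.

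**Figure D2:**
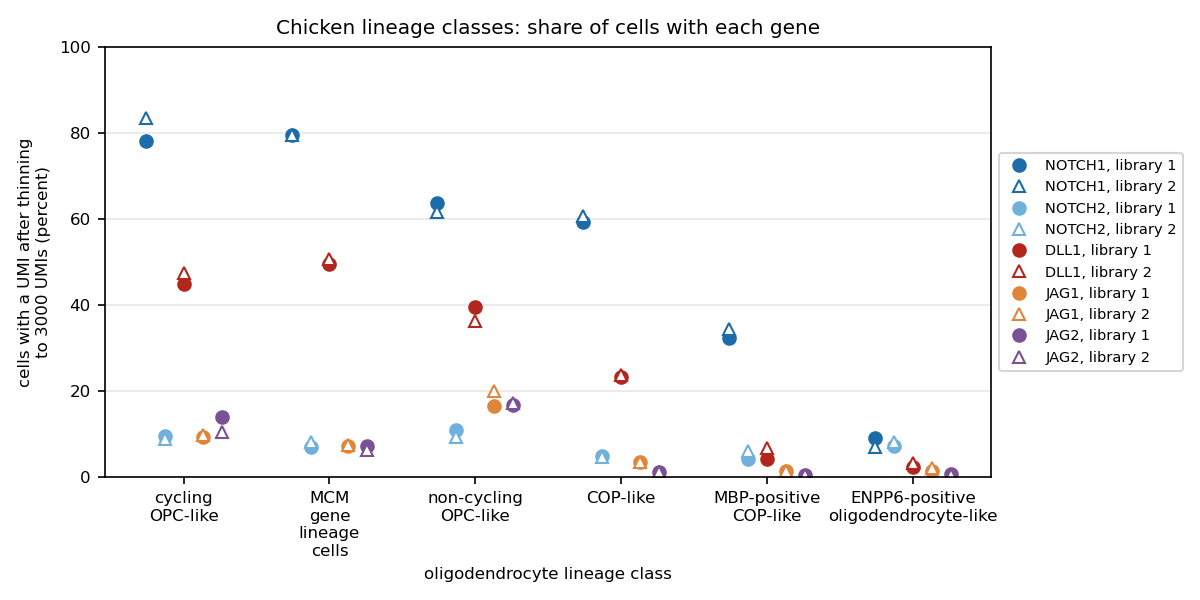
Share of cells with at least 1 UMI of each chicken member (vertical, percent) after every cell was thinned to 3000 UMIs, by oligodendrocyte lineage class (horizontal), with filled circles for library 1 and open triangles for library 2. NOTCH1 stays near 60% in COP-like cells, where JAG2 is at 1.13% and 1.03%.

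Astrocyte or radial glia-like cells, the largest chicken class, held NOTCH1 and JAG1, as non-cycling OPC-like cells did, but DLL1 and JAG2 only at background levels. NOTCH2 rose to 222 and 230 CPM in astrocyte or radial glia-like cells, against 37.9 and 34.5 CPM in non-cycling OPC-like cells, with a log2 fold change of 2.79 (SE 0.13, adjusted p = 3.39e-14 by edgeR's quasi-likelihood test with Benjamini-Hochberg adjustment). DLL1 (-6.24, SE 0.23, edgeR adjusted p = 8.05e-16) and JAG2 (-6.17, SE 0.28, edgeR adjusted p = 2.76e-14) fell to background levels. JAG1 rose, at 111 and 83.6 CPM against 68.8 and 72.2 CPM in non-cycling OPC-like cells (0.61, SE 0.19, edgeR adjusted p = 0.0112). The JAG1 call was lost in edgeR without the first astrocyte or radial glia-like sum (0.46, adjusted p = 0.115) and without the first (0.60, adjusted p = 0.0699) or the second (0.63, adjusted p = 0.0521) non-cycling OPC-like sum. NOTCH1, at 309 and 339 CPM against 355 and 370 CPM, had a log2 fold change of -0.02 (SE 0.25, edgeR adjusted p = 0.969), whose sign turned under some settings. Of all genes 47.7% were called, 24.7% as higher and 23.0% as lower in astrocyte or radial glia-like cells, and of the 5 members 2 were called in each direction. The share of higher calls among all calls was 51.8% with TMM and 40.5% with library totals alone. With doublets kept the NOTCH2 difference was 2.04.

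Among chicken cells outside the oligodendrocyte lineage, dividing cells were set against non-dividing ones with the same receptors. Cycling progenitors without SOX10 had NOTCH1 at 342 and 369 CPM, against 309 and 339 CPM in astrocyte or radial glia-like cells, and NOTCH2 at 205 and 219 CPM, against 222 and 230 CPM. JAG1 fell, at 73.9 and 53.1 CPM against 111 and 83.6 CPM in astrocyte or radial glia-like cells (log2 fold change -0.81, SE 0.20, edgeR quasi-likelihood adjusted p = 0.00522). NOTCH1 (-0.04, SE 0.26, edgeR adjusted p = 0.937) did not pass, and its sign turned with the scaling. NOTCH2 (-0.27, SE 0.12, edgeR adjusted p = 0.112) did not pass either, but did with the library as a block (-0.26, edgeR adjusted p = 0.0404) and with doublets kept (-0.39, edgeR adjusted p = 0.0285). DLL1 and JAG2 were at background levels in both classes. The clusters of the astrocyte or radial glia-like class had 126 and 94.8 CPM and 86.9 and 68.0 CPM of JAG1. The range of the cycling progenitors overlapped that of the lower cluster, though they lay below it within each library. Whether the mix of clusters accounts for the JAG1 difference was not tested. The JAG1 call was lost in edgeR with doublets kept (-0.52, adjusted p = 0.0701), without the second cycling progenitor sum (-0.56, adjusted p = 0.151) and without the first astrocyte or radial glia-like sum (-0.57, adjusted p = 0.101). Of all genes 23.4% were called, 9.04% as higher and 14.4% as lower in cycling progenitors without SOX10, and of the 5 members 1 was called, as lower. The share of higher calls was 38.6% with TMM, 50.8% with size factors and 66.7% with library totals alone.

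Neuron-like cells of the chicken cord, the mean of the inhibitory, excitatory and PKD2L1-positive classes, held less NOTCH1, NOTCH2 and JAG1 and more JAG2 than astrocyte or radial glia-like cells. NOTCH1 ran from 6.75 to 65.9 CPM in the neuron-like sums, against 309 and 339 CPM in astrocyte or radial glia-like cells, with a log2 fold change of -3.86 (SE 0.22, adjusted p = 4.63e-13 by edgeR's quasi-likelihood test with Benjamini-Hochberg adjustment). NOTCH2 (-3.14, SE 0.11, edgeR adjusted p = 9.61e-17) and JAG1 (-3.07, SE 0.20, edgeR adjusted p = 3.56e-12) also fell. JAG2 rose to between 17.8 and 47.6 CPM, against 0.89 and 0.65 CPM in astrocyte or radial glia-like cells (5.33, SE 0.31, edgeR adjusted p = 6.66e-13). DLL1 was called higher (2.44, SE 0.27, edgeR adjusted p = 3.65e-08), at 6.80 to 33.0 CPM against 2.05 and 2.01 CPM. At equal depth DLL1 was seen in at most 5% of any neuron-like sum, so this difference was between low levels. Of all genes 63.5% were called, 29.5% as higher and 34.0% as lower in neuron-like cells, and of the 5 members 2 were called higher and 3 lower. This comparison, the preceding one and the one with non-cycling OPC-like cells share the astrocyte or radial glia-like sums.

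**Figure D3:**
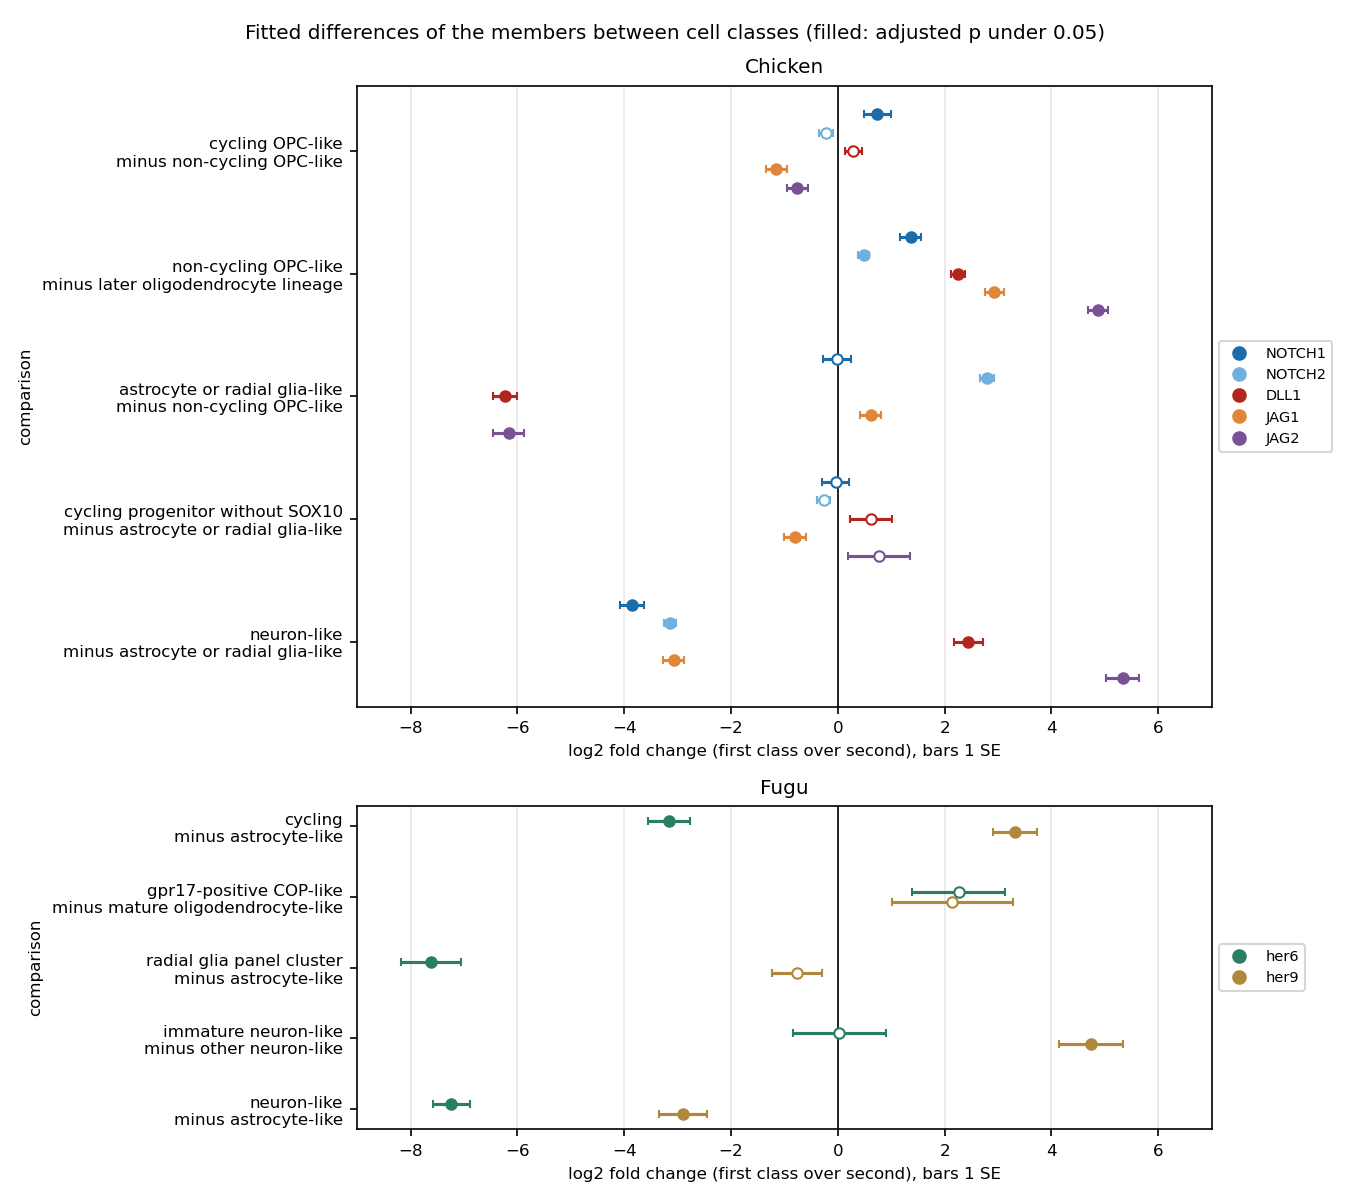
Fitted log2 fold change of each member (horizontal, first class over second, bars 1 SE) in the 5 chicken and 5 fugu comparisons, with filled points for adjusted p under 0.05 in edgeR. All 5 chicken members lie right of 0 for non-cycling OPC-like cells against the later lineage, and her6 and her9 lie on opposite sides of 0 for fugu cycling against astrocyte-like cells.

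NOTCH1 and DLL1 were each common in precursors, and part of the cells held both. After thinning to 3000 UMIs, 36.6% and 39.5% of cycling OPC-like cells had at least 1 UMI of both DLL1 and NOTCH1, as did 39.3% and 41.9% of MCM gene lineage cells and 25.3% and 23.8% of non-cycling OPC-like cells. The share was 14.1% and 14.2% in COP-like cells and 0.206% and 0.283% in astrocyte or radial glia-like cells. Among non-cycling OPC-like cells DLL1 was seen in 39.6% and 38.6% of those with a NOTCH1 UMI, against 39.5% and 32.3% of those without. Cells with and without NOTCH1 therefore held DLL1 at like shares in the first library, and in the second the share was higher in those with NOTCH1. Whether the genes met in a cell more often than their separate shares give was not tested. In astrocyte or radial glia-like cells 28.2% and 28.6% had both receptors and 14.9% and 13.6% had both NOTCH1 and JAG1. These shares are descriptions over cells of the same libraries.

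The further genes of the pathway, a list of receptors, ligands, modifying enzymes, proteases, nuclear cofactors, HES and HEY genes and proneural factors, were counted beside the members. Of 60 chicken genes on the list 54 were tested. In cycling against non-cycling OPC-like cells 5 were higher (9.26%, against 15.9% of all genes) and 19 lower (35.2%, against 29.1%), with a list median of -0.44 against -0.19 over all genes. The 3 with the largest change were HEYL, a HEY family repressor (-2.95, with 3.20 and 2.35 CPM against 21.8 and 19.5 CPM), NRARP, a feedback inhibitor of Notch signalling (-2.51, with 19.2 and 13.4 CPM against 101 and 76.2 CPM), and HES5B, a HES repressor (-2.45, with 1.87 and 0.73 CPM against 9.61 and 3.63 CPM). All 3 are genes that Notch signalling is known to switch on, and they were picked for the size of their change. Whether Notch signalling differed between the classes was not tested.

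Against the later lineage, 20 of the 54 list genes were higher in non-cycling OPC-like cells (37.0%, against 34.7% of all genes) and 10 lower (18.5%, against 25.0%), with a median of 0.18 against 0.11. With library totals alone these counts were 31 and 6. HEY1, a HEY family repressor, had 242 and 219 CPM against 4.38 and 4.87 CPM (5.30), DLL4, a Delta ligand best known from endothelium, 10.9 and 9.07 CPM against 0.71 and 0.33 CPM (4.50), and NRARP 101 and 76.2 CPM against 2.84 and 3.53 CPM (4.47). In astrocyte or radial glia-like cells against non-cycling OPC-like cells 23 were higher (42.6%, against 24.7%) and 16 lower (29.6%, against 23.0%), with a median of 0.29 against 0.01, and with library totals alone 18 were called in each direction. HES5A, a HES repressor, had 130 and 156 CPM against 1.95 and 1.98 CPM (6.32), HEY2 128 and 153 CPM against 2.34 and 3.13 CPM (5.84), and DLL4 0.39 and 0.050 CPM against 10.9 and 9.07 CPM (-5.31).

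In cycling progenitors without SOX10 against astrocyte or radial glia-like cells only 2 list genes were higher (3.70%, against 9.04% of all genes) and 12 lower (22.2%, against 14.4%), with a median of -0.18 against -0.16. The counts were 4 and 7 with size factors and 5 and 4 with library totals alone, so this balance depends on the scaling. The largest changes were those of HES6, a HES family member known to counteract HES repressors (1.76, with 47.8 and 54.1 CPM against 13.5 and 13.2 CPM), PSEN2, a protease subunit that cleaves Notch (-0.70), and TLE4, a corepressor (-0.68). In neuron-like cells against astrocyte or radial glia-like cells 13 were higher (24.1%, against 29.5%) and 27 lower (50.0%, against 34.0%), with a median of -0.56 against -0.08. HES5A (-8.85), HES5B (-8.83) and HEYL (-7.49) led it, all lower in neuron-like cells.

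In fugu, her6 was held mainly by a pair of classes. Astrocyte-like cells had 1375 and 1450 CPM of her6 and cilia gene cells, a class led by genes of motile cilia and left without a cell type name, had 1201 and 1299 CPM. The libraries of these classes did not overlap. Cycling cells came next with 57.4 and 230 CPM, a wide spread that overlapped mural-like cells at 144 and 81.7 CPM. The crabp2a and gfap cells, named for the leading gene crabp2a and the glial marker gfap, which the astrocyte-like, cycling and cilia gene cells also carried, had 46.6 and 71.3 CPM. Their leading genes also held the replication gene mcm4, and they carried the cycling marker pcna, the immature neuron marker sox11a and the OPC markers pdgfra and cspg4. The remaining classes lay between 0 and 25.0 CPM, and T or NK cell-like cells had none in 63 and 50 cells, which allows a UMI in up to 4.76% and 6% of cells by a limit of 3 counts and sets no limit on the cells that express the gene. At equal depth her6 was seen in 83.3% and 82.8% of astrocyte-like cells, 7.14% and 14.3% of cycling cells and 1.06% and 1.35% of mature oligodendrocyte-like cells. Free RNA held 87.9 and 119 CPM of her6 and 81.5 and 93.0 CPM of her9. These are again shares of free RNA and not amounts added to a cell, and T or NK cell-like cells held neither gene.

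her9 had another order of classes. The crabp2a and gfap cells had 1111 and 1043 CPM of her9 and cycling cells 924 and 921 CPM, without overlap. Since her9 is among the leading genes of the crabp2a and gfap cells, its level there is a description. Cilia gene cells had 304 and 210 CPM, and immature neuron-like cells 59.0 and 221 CPM. Astrocyte-like cells, at 84.7 and 116 CPM, overlapped both the radial glia panel cells (53.4 and 97.9 CPM) and mural-like cells (39.9 and 174 CPM). Below these, gpr17-positive COP-like cells had 7.13 and 18.7 CPM from 3 and 6 UMIs, mature oligodendrocyte-like cells 2.16 and 2.56 CPM, and T or NK cell-like cells had none. At equal depth her9 was seen in 75.4% and 78.1% of the crabp2a and gfap cells, 70.2% and 73.8% of cycling cells and 13.9% and 15.4% of astrocyte-like cells. In the first library immature neuron-like, radial glia panel and mural-like cells lay below the 81.5 CPM of her9 in free RNA.

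**Figure D4:**
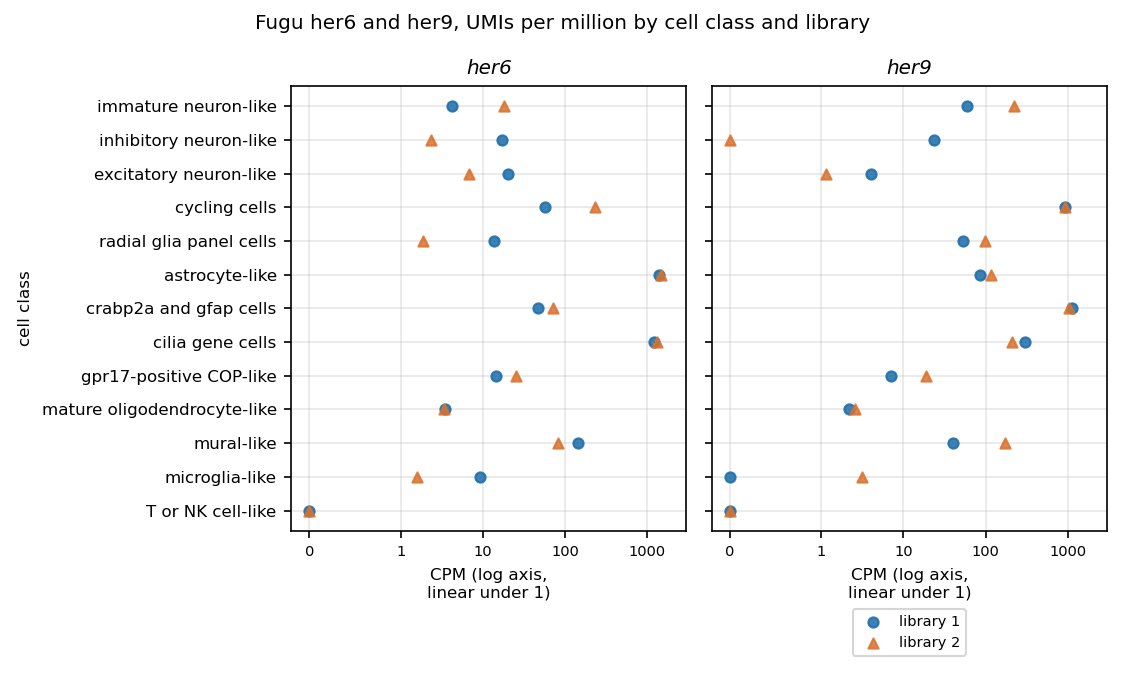
Level of her6 and her9 in CPM (horizontal, log axis, linear under 1) by fugu cell class, with circles for library 1 and triangles for library 2. Astrocyte-like cells hold her6 at 1375 and 1450 CPM and her9 at 84.7 and 116 CPM, and cycling cells hold her9 at 924 and 921 CPM and her6 at 57.4 and 230 CPM.

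Cycling cells and astrocyte-like cells of fugu differed in opposite directions for the her genes. her9 rose to 924 and 921 CPM in cycling cells, against 84.7 and 116 CPM in astrocyte-like cells, with a log2 fold change of 3.32 (SE 0.42, adjusted p = 1.91e-07 by edgeR's quasi-likelihood test with Benjamini-Hochberg adjustment over 13226 genes). her6 fell to 57.4 and 230 CPM in cycling cells, against 1375 and 1450 CPM in astrocyte-like cells (-3.17, SE 0.39, edgeR adjusted p = 1.47e-07). For both genes the libraries of the classes did not overlap, and the spread of her6 lay within the cycling cells, with a difference of -2.28 without the first and -4.32 without the second cycling sum. Of all genes 38.5% were called, 17.1% as higher and 21.4% as lower in cycling cells, and of the 2 members 1 was called in each direction. The cycling cells carried crabp2a and gfap beside their cell cycle genes, and the OPC markers sox6, pdgfra and cspg4. They also carried the COP marker prdm8b, the immature neuron marker sox11a and, of the lineage list, only sox8. The class may thus hold dividing cells of more than 1 kind, which was not tested. The crabp2a and gfap cells held more her9 than the cycling cells in both libraries, at 1111 and 1043 CPM. High her9 was thus not particular to the cycling cells. The crabp2a and gfap cells carried pcna and mcm4 beside gfap. Where they were summed with the astrocyte-like cells, the her9 call was lost (0.81, edgeR adjusted p = 0.101) and the her6 difference was -2.52.

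The pair was rarely split evenly within a class. Among astrocyte-like cells thinned to 3000 UMIs, 69.8% and 69.1% had only her6, 13.5% and 13.7% both genes and 0.397% and 1.75% only her9. Among cycling cells 1.19% and 1.19% had only her6, 5.95% and 13.1% both and 64.3% and 60.7% only her9. Most astrocyte-like cells with her9 thus also had her6, and most cycling cells with her6, only 6 and 12 cells, also had her9. As most astrocyte-like cells had her6 and most cycling cells her9, the separate shares alone would give this. Whether the genes met in a cell more often than those shares give was not tested. The crabp2a and gfap cells were like the cycling cells, with 71.0% and 73.0% of cells with only her9. Cilia gene cells held the largest share with both genes among the 6 classes plotted, 28.6% and 23.3%.

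**Figure D5:**
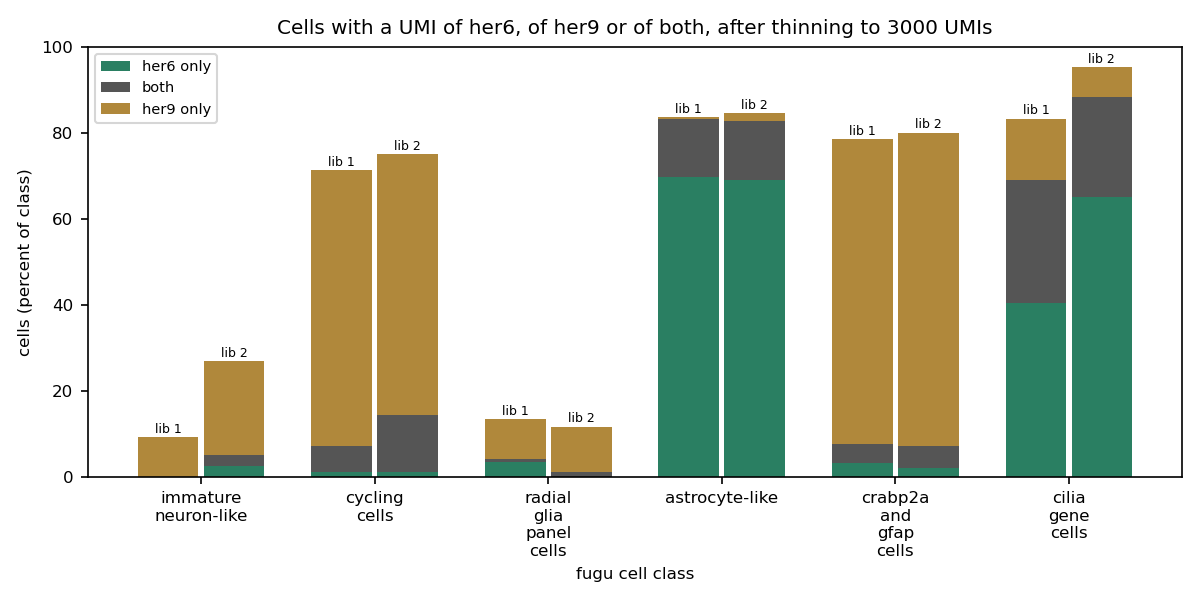
Percent of cells (vertical) with at least 1 UMI of her6 only, of both genes or of her9 only after thinning to 3000 UMIs, as stacked bars for each library of 6 fugu classes (horizontal). Astrocyte-like bars are mostly her6 only (69.8% and 69.1%), and cycling bars mostly her9 only (64.3% and 60.7%).

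Radial glia panel cells, which carried SOX10, OLIG2 and olig1 and are not read as radial glia, were set against astrocyte-like cells. her6 fell to 13.7 and 1.85 CPM in radial glia panel cells, from 11 and 1 UMIs, against 1375 and 1450 CPM in astrocyte-like cells (log2 fold change -7.62, SE 0.56, edgeR quasi-likelihood adjusted p = 6.01e-12). The size of this difference rests on few UMIs, with -9.79 without the first and -6.99 without the second radial glia panel sum. her9, at 53.4 and 97.9 CPM against 84.7 and 116 CPM, did not pass (-0.76, SE 0.46, edgeR adjusted p = 0.209), and did without a filter on low counts (-0.68, edgeR adjusted p = 0.0316) and with the crabp2a and gfap cells summed with the astrocyte-like cells (-3.27, edgeR adjusted p = 7.1e-07). Of all genes 38.3% were called, 18.0% as higher and 20.2% as lower in radial glia panel cells, and of the 2 members 1 was called, as lower. Of all calls 47.1% were higher with TMM and 60.6% with library totals alone.

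In fugu gpr17-positive COP-like and mature oligodendrocyte-like cells the her genes were low. gpr17-positive COP-like cells had 14.3 and 25.0 CPM of her6, from 6 and 8 UMIs, against 3.45 and 3.36 CPM in mature oligodendrocyte-like cells, and 7.13 and 18.7 CPM of her9 against 2.16 and 2.56 CPM. In each library COP-like cells were the higher. The her6 UMIs lay in only 1.64% of the 61 and 7.14% of the 42 COP-like cells. The levels of both genes in both classes were below those of free RNA, 87.9 and 119 CPM for her6 and 81.5 and 93.0 CPM for her9. Neither gene passed edgeR's quasi-likelihood test (her6 log2 fold change 2.26, SE 0.88, adjusted p = 0.0678, and her9 2.14, SE 1.13, adjusted p = 0.198). her6 passed with the library as a block (2.27, edgeR adjusted p = 0.0352), with DESeq2 (2.44, adjusted p = 0.0241), with doublets kept (2.18, edgeR adjusted p = 0.0362) and without a filter (2.07, edgeR adjusted p = 0.000593), and her9 with doublets kept (3.10, edgeR adjusted p = 0.00461) and without a filter (1.95, edgeR adjusted p = 0.0119). Of all genes 21.5% were called, 10.4% as higher and 11.1% as lower in COP-like cells, and of the 2 members 0. Of all calls 48.4% were higher with TMM and 60.2% with library totals alone.

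In immature neuron-like cells her9 was seen in a minority of cells, and her6 was low. her9 had 59.0 and 221 CPM in immature neuron-like cells, against 0 to 23.3 CPM in the inhibitory and excitatory neuron-like sums, and was called higher (log2 fold change 4.74, SE 0.59, edgeR quasi-likelihood adjusted p = 3.23e-07). The value moved to 5.41 without the first and 3.50 without the second immature neuron-like sum, and to 7.94 without the first inhibitory neuron-like sum, which held 19 of the 23 her9 UMIs of these neurons. her6, at 4.22 and 17.9 CPM against 2.34 to 20.3 CPM, overlapped throughout (0.03, SE 0.88, edgeR adjusted p = 1.00), and its sign turned with the scaling. Of all genes 31.0% were called, 12.5% as higher and 18.6% as lower in immature neuron-like cells, and of the 2 members 1 was called, as higher. At equal depth her9 was seen in 9.28% and 24.4% of immature neuron-like cells. Their 59.0 CPM in the first library lay below the 81.5 CPM of her9 in free RNA. In the second library 221 CPM lay above 93.0 CPM in free RNA.

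Over the 3 fugu neuron-like classes together both genes fell against astrocyte-like cells. her6 had at most 20.3 CPM in any neuron-like sum, against 1375 and 1450 CPM in astrocyte-like cells (log2 fold change -7.24, SE 0.35, edgeR quasi-likelihood adjusted p = 2.01e-16). her9 had 0 to 221 CPM, against 84.7 and 116 CPM, so the second immature neuron-like sum lay above the astrocyte-like cells while the other neuron-like sums lay below (-2.91, SE 0.45, edgeR adjusted p = 2.9e-06). Without the first inhibitory neuron-like sum the differences were -7.89 for her6 and -5.04 for her9, and with the crabp2a and gfap cells summed with the astrocyte-like cells -6.59 and -5.41. Of all genes 53.3% were called, 25.9% as higher and 27.3% as lower in neuron-like cells, and 2 of 2 members were called lower. The share of higher calls was 48.7% with TMM and 59.7% with library totals alone. The 3 comparisons with astrocyte-like cells share those sums.

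Of 79 further fugu genes of the pathway 59 were tested. In cycling against astrocyte-like cells 18 were higher (30.5%, against 17.1% of all genes) and 15 lower (25.4%, against 21.4%), with a list median of -0.08 against -0.20. The leading genes were 2 rows named HES2, which may share reads, and dlc, a Delta ligand. HES2 ENSTRUG00000015206 had 126 and 115 CPM in cycling cells and no UMI in astrocyte-like cells. Its mean was 159-fold a floor of 3 counts over the group. HES2 ENSTRUG00000021965 had 43.8 and 70.5 CPM and no UMI in astrocyte-like cells, with a mean 75.4-fold the floor. Such ratios leave out the counting error of the side with UMIs, so they are not lower limits. dlc had 24.6 and 23.0 CPM in cycling cells and none in astrocyte-like cells, with a mean 31.4-fold the floor. In COP-like against mature oligodendrocyte-like cells 13 were higher (22.0%, against 10.4%) and 4 lower (6.78%, against 11.1%), with a median of 0.23 against -0.24. The receptor gene notch1a had 64.2 and 87.5 CPM in COP-like cells, against 1.29 and 1.92 CPM in mature oligodendrocyte-like cells (5.28). dld, a Delta ligand, had 9.51 and 0 CPM in COP-like cells and none in mature oligodendrocyte-like cells. Its mean was 20.9-fold the floor but rested on 4 UMIs of the first library only. nrarpb, a counterpart of NRARP, had 3 UMIs in COP-like cells and 1 in mature oligodendrocyte-like cells, a ratio of 53.5 per UMI sequenced (exact 95% interval 4.29 to 2807, counting error only).

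In radial glia panel cells against astrocyte-like cells 11 of the 59 were higher (18.6%, against 18.0% of all genes) and 17 lower (28.8%, against 20.2%), with a median of -0.33 against -0.06. The genes with the largest change were her12, another fish HES family gene (1 UMI against 689, ratio 0.00427, interval 0.000108 to 0.0239), hey1 ENSTRUG00000030760 (3 UMIs against 1814, ratio 0.00486, interval 0.0010 to 0.0142) and nrarpb (0 UMIs against 104, with the astrocyte-like mean 11.7-fold the floor). In immature against other neuron-like cells 21 were higher (35.6%, against 12.5%) and 8 lower (13.6%, against 18.6%), with a median of 0.38 against -0.15. HES2 ENSTRUG00000021965 had 8.43 and 13.4 CPM in immature neuron-like cells, from 10 UMIs, and none in the others, with a mean 12-fold the floor. HES2 ENSTRUG00000015206 had 16 UMIs against 1 (ratio 57.2, interval 8.89 to 2400). neurl1b, a ubiquitin ligase of Notch ligands, had 0 UMIs against 43, with the mean of the other neurons 4.03-fold the floor. In neuron-like against astrocyte-like cells 10 were higher (16.9%, against 25.9%) and 21 lower (35.6%, against 27.3%), with a median of -0.16 against 0.00, and 16 and 18 with library totals alone. HEY1 had 0.45 and 1.87 CPM in neuron-like cells, against 196 and 174 CPM in astrocyte-like cells (-8.20), and the receptor gene notch3 6.32 and 18.3 CPM against 390 and 472 CPM (-5.77), whereas dll4 had 123 UMIs against 1 (ratio 115, interval 20.3 to 4596).

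The genes whose class pattern was most like each member were named by Pearson correlation of log2(CPM + 1) over the 30 chicken or 26 fugu sums of a class in a library, which share libraries and depth, as a description. For NOTCH1 these were TCF7L1 (r = 0.94), a repressor of Wnt targets, RBM7 (0.91) and ENSGALG00010019132 (0.89). For NOTCH2 they were EGLN3 (0.92), LAMC3 (0.90), a laminin chain, and ENSGALG00010008653 (0.90), and for DLL1 REPS2 (0.88), DPYSL4 (0.87) and ICOSLG (0.87). For JAG1 they were PHACTR2 (0.93), TLCD3A (0.92) and PALD1 (0.92), and for JAG2 SSTR4 (0.92), a somatostatin receptor, ADAMTSL2 (0.90) and SLC24A2 (0.88). In fugu, ccdc12 (0.90), the HES family gene her4.1 (0.90) and PANK4 (0.89) were most like her9, and mlc1 (0.92), a membrane protein gene of astrocytes, ENSTRUG00000014772 (0.92) and sort1a (0.91) most like her6. Among the members themselves NOTCH1 and JAG1 were most alike (0.72), DLL1 and JAG2 had 0.56, NOTCH1 and DLL1 0.44, and NOTCH2 and DLL1 -0.37, and her6 and her9 had 0.68 in fugu.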

How the data were processed

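Per the labels, the authors aligned the reads with Cell Ranger 7.2.0. Per the methods the chicken reads were mapped to the chicken genome and the fugu reads to that of T. rubripes, with Ensembl release 113 annotation, and the deposited values are raw UMI counts per gene and barcode. Depth per barcode sets the precision of each level.

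Barcodes with more than 3000 UMIs (fugu), 5000 (first chicken library) or 5500 (second) and the study's gene minima were kept, 2610 and 2572 in fugu and 8158 and 8293 in chicken, and 54, 53, 532 and 550 of them were removed as doublets by Scrublet (scanpy 1.11.5) at 0.8% per 1000 barcodes. Cells were clustered with Seurat 5.3.0 (2000 variable features without pathway genes, 10 principal components, resolution 0.5). The study's own calls of empty droplets and doublets were not rerun. UMI counts were summed per library and class with at least 20 cells in each library. All sums of a species entered 1 fit, tested with edgeR 4.0.16 (quasi-likelihood, TMM, genes with at least 10 counts in at least 2 sums), with Benjamini-Hochberg adjustment over all genes and calls at an adjusted p under 0.05. The alternatives were DESeq2 1.42.0, other scalings, no filter, a library block, a higher UMI minimum, no doublet removal, other clusterings and leaving out each sum. The test was tried on simulated counts with 200 genes changed 4-fold in 1 class. These were drawn independently from the fitted means and a trended spread, with no effect shared within a library. The false calls are therefore no check on the error rate in the real data. The test recovered 168 of the changed genes for chicken cycling against non-cycling OPC-like cells, with 6 false calls. For fugu cycling against astrocyte-like cells it recovered 115, with 8 false calls, so a difference that did not pass can still be large.

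Named genes were all members in every class, the 3 other pathway genes with the largest change among those called in each comparison, and the 3 genes most correlated with each member. The members and lists were chosen with earlier results of these data known. Classes of the same library come from the same pool of animals. Their deviations from the class means had a median correlation of 0.0742 over 105 class pairs in chicken and 0.0528 over 78 in fugu, with 41 and 15 pairs over 0.1. The exact smallest permutation p with 2 libraries against 2 is 0.33, so no such test was run. Intervals cover counting error only, and floors cover only that of the side without UMIs. Genomic coordinates and sequences were not used here.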

Additional observations from a re-analysis of the deposited data

How the results depend on the processing

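Over the 35 member differences, 475 of 518 alternative values kept their direction and side of the threshold, 18 changed sign, 12 lost and 13 gained a call, and 145 of 148 counts of called genes stayed within 1.5 times. Sign changes were confined to 3 differences that were between -0.04 and 0.03 as reported. NOTCH1 in astrocyte or radial glia-like against non-cycling OPC-like cells was 0.014 with the higher UMI minimum, 0.10 with doublets kept, 0.088 at resolution 1.0 and -0.029 to 0.12 when 1 sum was left out. NOTCH1 in cycling progenitors without SOX10 against astrocyte or radial glia-like cells was 0.037 with size factors, 0.037 with DESeq2, 0.060 with doublets kept, 0.018 at resolution 1.0, 0.14 with library totals alone and -0.10 to 0.0061 when 1 sum was left out. her6 in immature against other fugu neurons was -0.018 with size factors, -0.020 with DESeq2, -0.72 with doublets kept, -0.044 with library totals alone and -1.32 to 1.01 when 1 sum was left out. The cause was not tested. The count of called genes was 3117 for cycling progenitors and 1797 to 2274 with 1 sum left out, and 2846 for fugu COP-like cells and 1726 to 2437 with 1 sum left out, where fewer sums were compared. Scaling by library totals alone, summing the crabp2a and gfap cells with the astrocyte-like cells, and leaving the MBP-positive COP-like cells out of the later lineage were added after seeing the data. Library totals moved the median of all genes by -0.14 to 0.35 and size factors by -0.05 to 0.11 on the log2 scale. The library block changed the call of NOTCH2 in cycling progenitors (-0.26, edgeR adjusted p = 0.0404) and of her6 in COP-like cells (2.27, edgeR adjusted p = 0.0352) and no other member call, and moved no count of calls by over 1.5 times. Small classes limit precision, such as 26 and 23 endothelial-like and 40 and 22 PKD2L1-positive neuron-like cells in chicken. In fugu these include 30 and 44 mural-like, 42 and 43 cilia gene and 61 and 42 COP-like cells.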

Other observations

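Other genes of the pathway, singled out after their levels were seen, are given as values with no test. In fugu mural-like cells the receptor gene notch3 had 1294 and 1466 CPM, against 390 and 472 CPM in astrocyte-like cells, the ligand gene jag1b had 535 and 628 CPM against 149 and 211 CPM, and hey1 ENSTRUG00000030760 had 2404 and 3136 CPM against 446 and 469 CPM. The receptor gene notch2 had 131 and 138 CPM in microglia-like cells and 89.2 and 110 CPM in T or NK cell-like cells, against 8.30 and 6.97 CPM in astrocyte-like cells. The receptor gene notch1a had 722 and 783 CPM in fugu cycling cells and 272 and 270 CPM in radial glia panel cells, against 83.6 and 92.0 CPM in astrocyte-like cells. The repressor gene her4.1 had 2244 and 3020 CPM in cycling cells and 1598 and 2265 CPM in crabp2a and gfap cells, against 2672 and 2369 CPM in astrocyte-like cells, while radial glia panel cells had 32.3 and 128 CPM.

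In chicken, the Delta ligand DLL4 had 179 and 223 CPM in endothelial-like cells and 112 and 109 CPM in PKD2L1-positive neuron-like cells, against 0.39 and 0.050 CPM in astrocyte or radial glia-like cells. LFNG, a glycosyltransferase that modifies Notch receptors, had 533 and 628 CPM in astrocyte or radial glia-like cells, against 26.2 and 25.4 CPM in non-cycling OPC-like cells. DLK2, a Delta-like protein, had 16.9 and 22.8 CPM in non-cycling OPC-like cells, 192 and 161 CPM in COP-like cells and 152 and 139 CPM in ENPP6-positive oligodendrocyte-like cells.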
